A study of Mus musculus with 4 samples.

Results

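Lef1, Tcf7, Tcf7l1, Tcf7l2 and Axin2 are described here by their chromatin accessibility in nuclei of the mouse mammary epithelium, profiled with ATAC-seq of single nuclei, for 5 of the 21883 genes counted and 4 of the 427 motif columns of the deposited score table. The genes were chosen by name, as the mouse TCF and LEF transcription factors with the feedback gene Axin2, and all 5 passed the filter on low counts in every comparison. A motif column existed for each factor but none for Axin2, which is not a DNA-binding factor. The nuclei came from wild-type CD1 mice, an outbred strain with no transgene or treatment in the labels. The sort took EpCAM-positive cells without lineage markers, either from fetuses at embryonic day 18 or from adults of 8 weeks, and each stage has 2 libraries. The labels call the libraries biological replicates and do not say how many animals were pooled in each.

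TCF and LEF factors are the DNA-binding endpoint of canonical Wnt signalling. They bind short CTTTG-containing sites through an HMG box, recruit Groucho/TLE corepressors in the absence of a signal, and activate their targets when beta-catenin is stabilised and binds them. Lef1 is required for the mammary buds of the embryo to develop, Tcf7l1 is best known as a repressor in embryonic and skin stem cells, Tcf7l2 is the main factor of the intestinal epithelium, and Tcf7 and Lef1 are also strongly used by T cells. Axin2 is a scaffold of the complex that degrades beta-catenin and is itself induced by Wnt signalling, so it is widely used as a readout of the pathway. In the mammary gland Wnt-responsive cells are found mainly in the basal layer.

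The authors kept 882 to 2804 nuclei per library with medians of 4420 to 7488 reads per nucleus, and no barcode was shared between libraries. They placed the 7846 nuclei in 14 unnamed classes, and each class with at least 50 nuclei in a library reached that number in libraries of 1 stage only. Classes 4, 5, 9, 12 and 13 were fetal and classes 1, 2, 3, 6, 7, 8, 10, 11 and 14 adult, so for those classes and libraries class and stage cannot be told apart. Class 6 also held 23 and 33 fetal nuclei beside its 82 and 75 adult ones. Summed reads over 8 basal marker genes, as RPM (reads per 1000000 reads of the class or library), were highest in classes 1 and 8, at 1104 and 892 RPM, with 502 in class 12, 480 in class 14 and 472 in class 4. Summed reads over 7 luminal progenitor markers were highest in classes 7 and 3, at 521 and 370, with 299.6 in class 9 and 289 in class 5, next to 294 in class 10. Mature luminal markers were highest in classes 2 and 11 and stromal markers in class 6. The names used below, basal-like for classes 1, 4 and 8, luminal progenitor-like for 3, 5, 7 and 9, mature luminal-like for 2 and 11 and stromal-like for 6, come from an earlier account of these data. These sums do not single out all of them. Classes 12 and 14 were above class 4 in basal markers, and class 10 lay between classes 9 and 5 in luminal progenitor markers, and these 3 classes are left unnamed, as is class 13.

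The sequences before the first listed starts of Lef1 and Tcf7l1 come first, since these genes had promoter regions called different between the stages. The second called region of Lef1 is not shown. Each of these calls was lost in at least 1 run without 1 library, as given below. The 2 listed starts that hold a TCF/LEF-type core follow. The sequences are those of RefSeq on GRCm38.p6, the same assembly as the mm10 build of the files, printed 5′ to 3′ on the gene's strand. The first 2 lines give the 250 bases before the start of Lef1 at chr3:131110047-131110296 on the plus strand and of Tcf7l1 at chr6:72789046-72789295 on the minus strand. The last 2 lines give 30 bases around a match, with the match in capitals. They lie at chr3:131156136-131156165, before a listed internal start of Lef1, and at chr19:55895296-55895325, at a listed internal start of Tcf7l2.
Lef1 promoter: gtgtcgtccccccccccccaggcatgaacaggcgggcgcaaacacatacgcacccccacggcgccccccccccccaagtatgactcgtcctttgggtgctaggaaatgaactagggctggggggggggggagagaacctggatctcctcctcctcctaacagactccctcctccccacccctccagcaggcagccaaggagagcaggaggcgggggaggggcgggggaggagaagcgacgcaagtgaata
Tcf7l1 promoter: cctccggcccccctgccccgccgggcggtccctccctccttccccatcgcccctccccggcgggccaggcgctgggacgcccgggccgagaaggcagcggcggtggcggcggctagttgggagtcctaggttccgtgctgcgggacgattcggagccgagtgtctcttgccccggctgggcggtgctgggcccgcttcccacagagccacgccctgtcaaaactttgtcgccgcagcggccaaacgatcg
Lef1 internal start: caacctcagaaTACAAAGtaggattgcatt
Tcf7l2 internal start: aaaatatcaggCTTTGTTcttttgattgaa
The search for 4 cores covered both strands of windows from 250 bases before to 50 after each listed start. Of 32817 such windows of the genome CTTTGAT was held by 3.73%, CTTTGAA was held by 5.14%, CTTTGTT was held by 5.85% and CTTTGTA was held by 3.64%, while 16.9% held any of them. None of the 4 was found in the windows at the first listed starts of Lef1, Tcf7, Tcf7l1, Tcf7l2 and Axin2. In that order these genes have 4, 2, 1, 2 and 1 listed starts, all of which were searched. Only the 2 internal starts printed above held a core, a count to be read against the 16.9% of all windows. The internal Lef1 start carried CTTTGTA on the opposite strand, read as TACAAAG in the line above, from base -147. The internal Tcf7l2 start carried CTTTGTT from base -14. Neither distal region over these matches was called: the region over the Lef1 match had 6 and 29 fetal reads and 4 and 32 adult reads (log2 fetal over adult 0.57, adjusted p = 0.522, edgeR), and the region over the Tcf7l2 match had 30 and 68 against 51 and 76 (log2 0.28, adjusted p = 0.544, edgeR).

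The fetal and adult libraries were compared first over whole genes, from reads on the annotated span with 2 kb on either side. Lef1, Tcf7l1 and Tcf7l2 were more accessible in fetal nuclei, while Tcf7 and Axin2 did not pass the test. A gene was called at an adjusted p under 0.05 in edgeR's quasi-likelihood test over 18804 genes, and 22.2% of all genes tested were called in either direction, 11.3% of all as higher in fetal nuclei. With 3 of the 5 genes called, all as higher, the count is to be read against those shares. Levels below are CPM, reads over a gene per 1000000 reads counted over all tested genes, after scaling. The p-values of a stage difference set it against the spread between libraries of a stage, moderated over all features tested. With 2 libraries per stage, values that do not overlap carry little weight alone, and their share over all features is not given here.

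Lef1 lies on the plus strand at chr3:131110297-131224357. Its level was 78.2 and 88.0 CPM in fetal libraries against 39.0 and 47.8 CPM in adult libraries. Both fetal values were above both adult values, at 83.1 ± 6.88 against 43.4 ± 6.26 CPM (SD, n = 2 each). The log2 fold change was 0.94 ± 0.14 (SE), a 1.92-fold higher level (adjusted p = 0.00037, edgeR), and it was between 0.81 and 1.08 when any 1 library was left out.

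Tcf7l1 lies on the minus strand at chr6:72626371-72789045 and encloses 4 annotated non-coding genes, Gm15401, Gm31391, Gm31249 and the pseudogene Gm31315. It measured 319.6 and 349.9 CPM in fetal libraries against 184 and 187 CPM in adult libraries. The stages did not overlap, and each stage's libraries lay close together. The log2 fold change was 0.85 ± 0.10 (SE), or 1.81-fold (adjusted p = 6.24e-05, edgeR).

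Tcf7l2 lies on the plus strand at chr19:55741797-55933659, with the lncRNA Gm31734 over its start. It had 458 and 495 CPM in fetal and 332 and 312 CPM in adult libraries. Again the fetal libraries were both higher, by 0.57 ± 0.09 (SE) on the log2 scale or 1.48-fold (adjusted p = 0.000555, edgeR). Counted only within 2 kb of the start, Tcf7l2 was no longer called (log2 0.06, adjusted p = 0.743, edgeR), whereas Lef1 (log2 0.76, adjusted p = 0.00184) and Tcf7l1 (log2 0.53, adjusted p = 0.000779) were.

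Tcf7 lies on the minus strand at chr11:52246527-52283383, and its 3′ end overlaps Skp1, so a few reads there cannot be assigned to either gene. Its level was 46.4 and 49.1 CPM in fetal and 47.2 and 46.2 CPM in adult libraries. The ranges overlapped and the log2 fold change was 0.04 ± 0.13 (SE; adjusted p = 0.876, edgeR). Axin2, at chr11:108917828-108950783 on the plus strand, had 64.9 and 64.3 CPM in fetal and 50.9 and 50.7 CPM in adult libraries. Its 2 stages did not overlap, but the log2 fold change of 0.35 ± 0.12 (SE) missed the threshold at an adjusted p of 0.0559 (edgeR). Without the stromal-like class 6, in which Axin2 was highest, the adjusted p was 0.0307 (log2 0.40, edgeR). That run was chosen after seeing the data, on the level of Axin2 itself in a class of mostly adult nuclei, so it gives no support to a stage difference.

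Per kilobase, which allows levels of different genes to be compared, Tcf7l2 was the most accessible in both stages, at 2.43 CPM per kb in fetal and 1.64 in adult libraries. Tcf7l1 followed in fetal libraries at 2.01 CPM per kb, ahead of Axin2 at 1.75, Tcf7 at 1.17 and Lef1 at 0.704. In adult libraries Axin2 came second at 1.38 CPM per kb, then Tcf7 at 1.14, Tcf7l1 at 1.11 and Lef1 at 0.368. Over all nuclei Lef1 was thus the least open of the genes per length in both stages.

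Markers of T cells were examined beside Lef1 and Tcf7, since lineage-positive cells were to be removed by the sort. The summed level of 9 T cell genes was 200.2 and 212 RPM in fetal and 125 and 140 in adult libraries, so it moved in the direction of Lef1. Of these 9 genes, 2 were called higher in fetal nuclei, Bcl11b (log2 1.11) and Cd247 (log2 0.52), and 7 were not called. Bcl11b alone had 124 and 142 CPM in fetal against 56.8 and 66.8 CPM in adult libraries. Of the genes not called, Cd3d, Cd3g and Themis had a log2 fold change below 0 and Cd3e, Cd4, Cd8a and Il7r above 0. Among those not called, the CD3 genes that define T cells were at 2.96 to 5.80 CPM for Cd3e, 0.43 to 1.62 CPM for Cd3d and 1.72 to 4.93 CPM for Cd3g, without a T cell library to set them against, and no marker was at 0 in any library. Their part in the Lef1 difference was not tested.

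The same test was then made within the luminal progenitor-like and the basal-like classes, because the mature luminal-like classes are nearly confined to the adult libraries. Class 2 held 805 and 714 adult nuclei against 1 and 2 fetal nuclei, and class 11 held 197 and 360 against 2 and 5. In the luminal progenitor-like classes 19.9% of 17645 genes tested were called, 9.66% as higher and 10.3% as lower in fetal nuclei, and Lef1 and Tcf7l1 were among those higher in fetal nuclei. Tcf7l2 was not.

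In the luminal progenitor-like nuclei Lef1 had 65.4 and 80.3 CPM in fetal against 29.9 and 38.5 CPM in adult libraries. The fetal values were again both higher, by 1.10 ± 0.17 (SE) on the log2 scale (adjusted p = 5.69e-05, edgeR). Summed T cell markers were also higher in fetal classes 5 and 9, at 208 and 198 RPM, than in adult classes 3 and 7, at 160.3 and 109.9. These class sums were not split by gene, and over all nuclei only Bcl11b and Cd247 of those markers were called. Summed basal markers were 332 and 343 RPM in classes 5 and 9 against 316 and 231 in classes 3 and 7. Summed stromal markers were 192 and 169 RPM in the former against 159 and 111 in the latter. Their part in the difference was not tested. Tcf7l1 had 299 and 355 CPM against 194 and 187 CPM, a log2 fold change of 0.78 ± 0.11 (SE; adjusted p = 1.33e-05, edgeR). Tcf7l2 had 479 and 522 CPM in fetal and 503 and 468 CPM in adult libraries, which overlapped. Its log2 fold change was 0.05 ± 0.09 (SE; adjusted p = 0.788, edgeR), and with any 1 library left out it was between -0.01 and 0.12. Tcf7 (log2 0.21, adjusted p = 0.433) and Axin2 (log2 0.31, adjusted p = 0.197) were not called by edgeR either.

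In the basal-like classes 5.96% of 16493 genes tested were called, 2.93% as higher and 3.03% as lower, and the picture rested on fewer reads. Lef1 had 114 and 104 CPM in fetal and 43.1 and 70.3 CPM in adult libraries, higher in both fetal libraries by 0.88 ± 0.24 (SE) on the log2 scale (adjusted p = 0.0227, edgeR). Tcf7 went the other way, with 42.1 and 32.4 CPM in fetal and 73.8 and 61.9 CPM in adult libraries, and fell by 0.90 ± 0.28 (SE) on the log2 scale (adjusted p = 0.0495, edgeR). Neither call was firm. Lef1 was not called with DESeq2 (adjusted p = 0.0873) or without fetal 1, fetal 2 or adult 1 (0.0959, 0.0536 and 0.234), and Tcf7 not with DESeq2 (0.196) or without any 1 of the 4 libraries (0.0577 to 0.367). Tcf7l1 (log2 0.31, adjusted p = 0.283), Tcf7l2 (log2 0.21, adjusted p = 0.485) and Axin2 (log2 -0.43, adjusted p = 0.349) were not called by edgeR. The basal-like comparison sets fetal class 4 against adult classes 1 and 8, whose marker levels differed. Summed basal markers were 472 RPM in class 4 against 1104 and 892 in classes 1 and 8, and summed luminal progenitor markers were 187 against 132 and 110.3. Their part in these differences was not tested. With fetal class 12 added, Lef1 was still called (log2 0.78, adjusted p = 0.0182, edgeR) and Tcf7 was not (log2 -0.62, adjusted p = 0.105, edgeR).

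Whether the stage difference itself differed between the basal-like and the luminal progenitor-like classes was tested with an interaction term in edgeR, with the library as a block, a test added after seeing the data. Of 17259 genes, 6.18% were called, 2.6% with a higher and 3.57% with a lower stage difference in the basal-like classes, and Tcf7 and Tcf7l1 were among them. The log2 stage difference of Tcf7 was lower in the basal-like classes by 1.16 ± 0.32 (SE; interaction -1.16, adjusted p = 0.0143), and that of Tcf7l1 by 0.52 ± 0.16 (SE; interaction -0.52, adjusted p = 0.0372). Neither held without fetal 2 (adjusted p = 0.407 and 0.584) or without adult 1 (0.209 and 0.22), and Tcf7l1 not without adult 2 (0.0579). The interaction was -0.78 for Axin2 (adjusted p = 0.0888), -0.22 for Lef1 (0.773) and 0.12 for Tcf7l2 (0.758), none of them called.

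**Figure D1:**
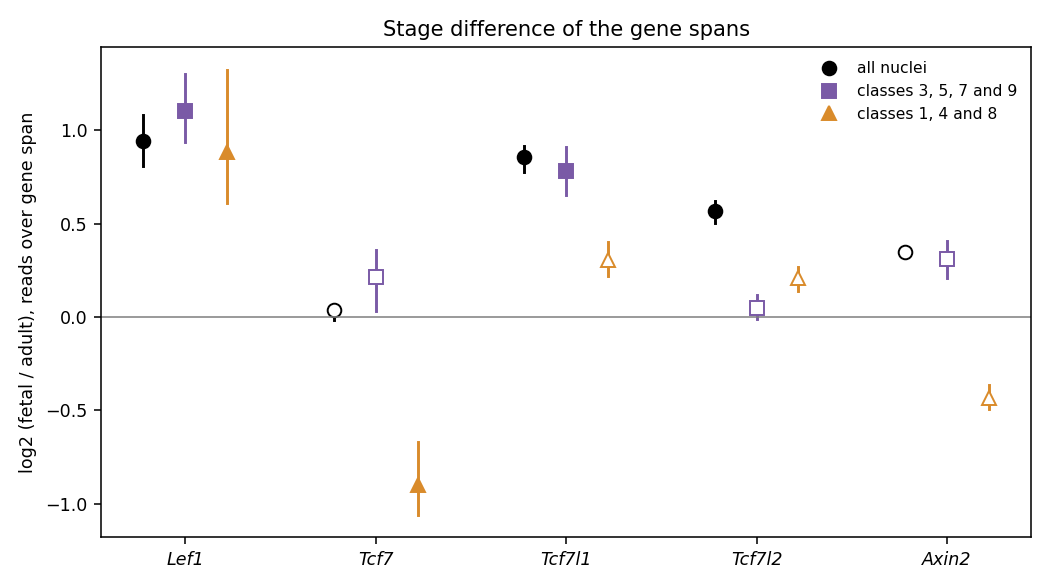
Log2 ratio of fetal to adult reads over each gene span with 2 kb on either side, for all nuclei, the luminal progenitor-like classes 3, 5, 7 and 9 and the basal-like classes 1, 4 and 8. Filled markers passed the adjusted p threshold of 0.05 in edgeR, open markers did not, and lines span the values with 1 library left out. Lef1 lies between 0.88 and 1.10 in the 3 comparisons, Tcf7l2 is at 0.05 within the luminal progenitor-like classes, and Tcf7 is at -0.90 in the basal-like classes.

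Levels in the 14 classes are given without a test, since the classes were formed from these reads, over the 26 points of a class and library with at least 50 nuclei. They are RPM over the gene span, out of all reads of the class in that library. Classes 13 and 14 have 1 such library each.

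Lef1 was highest in fetal class 4, with 83.4 and 72.7 RPM, and in fetal class 12, with 73.1 and 72.1. These overlap each other and lie above every other class. The lowest class was adult luminal progenitor-like class 7, with 17.98 and 15.6, so the mean of the highest class was 4.65 times that of the lowest. The lowest mean of the 5 fetal classes was 47.1, in class 5, and the only adult classes with a higher mean were 11 and 8, at 48.7 and 48.5. In class 8 the libraries differed, at 34.1 and 62.8, and in class 6 they differed as well, at 63.9 and 24.2.

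For Tcf7 12 of the 13 pairs of neighbours in the order of classes overlapped. It was highest in adult basal-like class 1, at 60.9 and 44.7 RPM, followed by the other adult basal-like class 8 at 48.6 and 43.9. Fetal basal-like class 4, the highest for Lef1, was among the lowest for Tcf7, at 30.9 and 22.8. Only class 13, with 19.6 in its single library and 12 reads, was lower.

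Tcf7l1 was highest in 4 of the 5 fetal classes, the other being class 13 with 201 RPM in its single library. Class 5 had 258 and 316.5 RPM, class 12 had 254 and 283, class 4 had 265 and 227, and class 9 had 228 and 251. These overlap, and basal-like class 1, at 234 and 189, was the adult class nearest to them. The lowest values were in mature luminal-like class 2, at 111 and 101, a ratio of 2.70 between the highest and the lowest mean.

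Tcf7l2 followed another order, in which the luminal progenitor-like classes of both stages came high. Fetal class 5 had 395 and 462 RPM and adult class 7 had 409 and 388, which overlap. The mature luminal-like classes stood lowest without overlap with the classes above them, class 2 at 154 and 161 and class 11 at 142 and 112. The ratio of the highest to the lowest mean was 3.37.

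Axin2 was highest in the stromal-like class 6, at 85.2 and 88.2 RPM. Among the epithelial classes fetal class 12 came first but its libraries differed, at 98.5 and 53.2, followed by adult basal-like class 1 at 64.4 and 69.3. Adult classes 3, 7, 10 and 2 had means from 25.5 to 37.0, and class 14 had the lowest, 17.1 in its single library, from 10 reads.

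**Figure D2:**
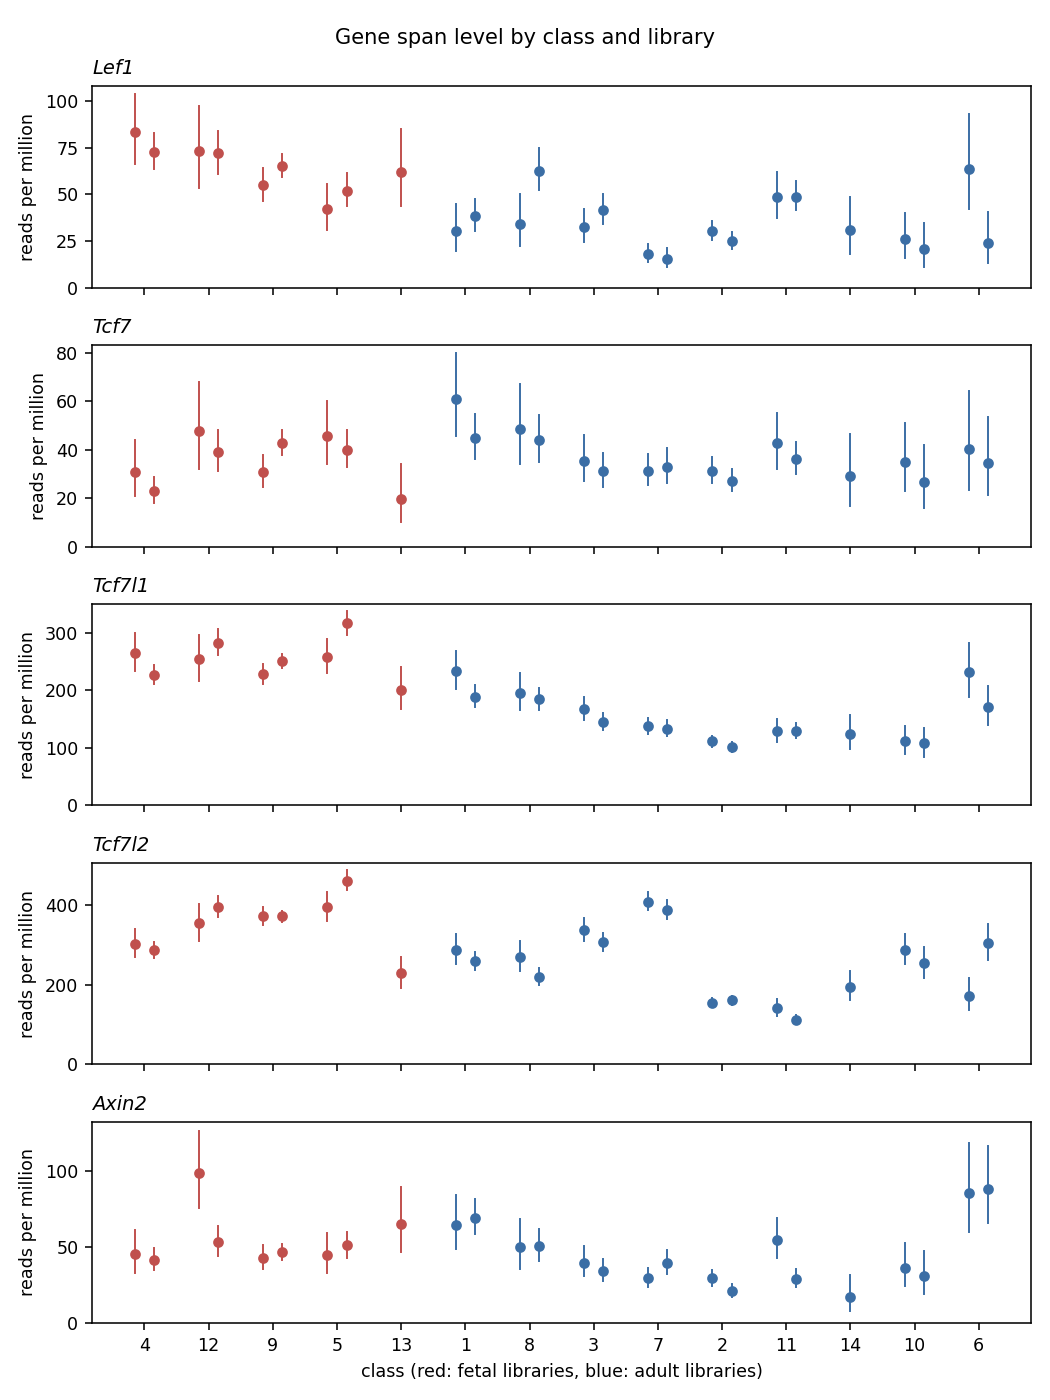
RPM over each gene span, by class (x axis) and library (points), for points with at least 50 nuclei; lines are exact Poisson 95% intervals and cover counting error only. Red points are fetal and blue points adult libraries; Tcf7l2 is lowest in classes 2 and 11, Lef1 in class 7, and Axin2 is high in class 6.

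Across the 26 points the levels of Lef1 and Tcf7l1 moved together most closely of the 10 gene pairs, at Pearson r = 0.70, followed by Tcf7l1 and Axin2 at 0.63 and Tcf7l1 and Tcf7l2 at 0.55. Lef1 and Tcf7l2 showed no relation (r = -0.01), nor did Lef1 and Tcf7 (r = 0.09). These points share 4 libraries and differ in depth, so the values are descriptions. Of 16707 genes averaging 50 or more reads per library, all but the 5 described here were compared with each of these. The levels most like those of Lef1 were found at Plxna2 (r = 0.88), Fgd5 (0.82) and B3gnt5 (0.82). For Tcf7 they were Optc (0.77), Ak1 (0.74) and Fam43b (0.73), for Tcf7l1 Col2a1 (0.93), Itga9 (0.92) and Sema6a (0.91), for Tcf7l2 Thbs1 (0.89), 1700025G04Rik (0.87) and Rgma (0.86), and for Axin2 Wdr63 (0.85), Ttyh2 (0.84) and Adamts7 (0.82).

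Promoter regions, each 1 kb wide, were compared next, and 21.5% of the 18570 tested were called. Lef1 has a region over its start, at chr3:131109832-131110831, and a second one at chr3:131111859-131112858. The first had 36.3 and 21.6 CPM of reads in promoter regions in fetal libraries and 13.6 and 12.7 CPM in adult libraries, and the second had 32.2 and 37.7 against 13.02 and 20.7 CPM. Both were higher in both fetal libraries, by 1.08 ± 0.32 and 1.05 ± 0.28 (SE) on the log2 scale (adjusted p = 0.00918 and 0.00343, edgeR), and each lost its call in 2 of the 4 runs without 1 library. The first was lost without fetal 1 (adjusted p = 0.199) or adult 2 (0.0573), and the second without fetal 2 (0.0772) or adult 1 (0.0867).

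The Tcf7l1 promoter region, chr6:72788827-72789826, over the sequence printed above, had 130.3 and 173 CPM in fetal and 103.9 and 104.1 CPM in adult libraries. Both fetal libraries were higher, by 0.57 ± 0.13 (SE) on the log2 scale (adjusted p = 0.000882, edgeR), but without fetal 2 the difference was 0.33 (adjusted p = 0.244). Its smaller neighbour, 1.67 kb into the gene, was not called (log2 0.63, adjusted p = 0.341, edgeR). The Tcf7l2 region at the start, chr19:55741165-55742164, had 137 and 127 against 111 and 101 CPM, and the Axin2 region, chr11:108919971-108920970, had 74.0 and 69.5 against 53.0 and 52.5 CPM. For both genes the stages did not overlap and neither was called (log2 0.31 and 0.44, adjusted p = 0.088 and 0.0689, edgeR). The 2 Tcf7 regions were not called, at log2 0.08 and 0.78 (adjusted p = 0.841 and 0.198, edgeR).

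Distal regions, the authors' 1 kb sites away from promoters, numbered 179 within 50 kb of these genes, of which 160 passed the filter on low counts. In the test over all 122865 distal regions 35.3% were called, 16.6% higher and 18.8% lower in fetal nuclei. Near the 5 genes 34 regions were higher and 14 lower, with a median log2 fold change of 0.43 against -0.01 over all distal regions. Tcf7l2 had 15 higher and 6 lower of 61 tested, Tcf7l1 13 and 6 of 46, Lef1 4 and 1 of 21, Tcf7 1 and 1 of 16, and Axin2 1 and 0 of 16. Regions with few reads in a stage pass the filter only through the other stage, and the rises and falls named below were picked for their size. These counts, and the folds and p-values of those rises and falls, are therefore descriptions.

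At Tcf7l1 the higher and lower regions lay mostly apart along the locus. From the start to 120 kb into the gene 13 of 21 tested regions were higher in fetal nuclei and none was lower. From 120 kb to 170 kb none of 11 was higher and 3 were lower, of which 2 lay within the gene. The remaining 3 lower regions near Tcf7l1 were outside the gene. These stretches were set after the values were seen. The region with the largest rise among those with at least 20 reads per library on average, chr6:72774096-72775095, 14.4 kb into the gene, had 29 and 74 fetal reads and 5 and 7 adult reads. It was higher in both fetal libraries (log2 3.70 ± 0.52 SE, adjusted p = 3.81e-07, edgeR). The next, chr6:72709471-72710470, 79.1 kb into the gene, had 25 and 71 fetal reads and 2 and 13 adult reads (log2 3.30 ± 0.54 SE, adjusted p = 5.46e-06, edgeR). Both were most open in fetal classes, the first at 7.75 RPM in class 12 and the second at 8.08 in class 4.

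The largest falls near Tcf7l1 were at chr6:72586624-72587623, within the neighbouring gene Elmod3, and at chr6:72809383-72810382, 20.8 kb before the start. The first had 0 and 2 fetal reads against 50 and 59 adult reads, a ratio of 36.2 (exact 95% interval of counting error 9.78 to 302) in favour of adult nuclei. The second had 0 and 2 against 24 and 63 reads, a ratio of 28.9 (7.76 to 242). Both were open mainly in the mature luminal-like classes 2 and 11, the first at 5.64 and 7.15 and the second at 5.51 and 5.36 RPM. The Tcf7l1 region with the most reads, 139 kb into the gene, had 99 and 280 against 244 and 286 reads and did not differ in the test (log2 0.10 ± 0.20 SE, adjusted p = 0.721, edgeR).

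At Tcf7l2, 11 of 35 regions in the first 100 kb of the gene were higher in fetal nuclei and 1 was lower, while from 100 kb to 150 kb none of 12 was higher and 3 were lower. These stretches, too, were set after the values were seen. Of the other higher regions within 50 kb of Tcf7l2, 1 lay before the start and the rest beyond the 3′ end. The region with the most reads, chr19:55779270-55780269, 38.0 kb into the gene, had 77.4 and 76.1 CPM in fetal and 33.0 and 26.5 CPM in adult libraries. It was higher in both fetal libraries (log2 1.37 ± 0.20 SE, adjusted p = 5.93e-07, edgeR). By class it was open in fetal and adult basal-like and luminal progenitor-like nuclei alike, from 45.5 RPM in class 5 and 34.2 in class 8 to 17.0 in class 7. In the mature luminal-like classes 2 and 11 it was almost closed, at 1.01 and 0.31.

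Other Tcf7l2 regions differed more between the stages. The region at chr19:55756241-55757240, 14.9 kb into the gene, had 84 and 230 fetal and 52 and 57 adult reads (log2 2.12 ± 0.26 SE, adjusted p = 3.55e-08, edgeR), and chr19:55710489-55711488, 30.8 kb before the start, had 47 and 131 against 31 and 35 (log2 2.02 ± 0.33 SE, adjusted p = 5.89e-06, edgeR). Both were highest in fetal class 5. In the opposite direction, chr19:55956357-55957356, beyond the 3′ end, had 4 and 22 fetal reads and 142 and 186 adult reads (log2 -3.08 ± 0.36 SE, adjusted p = 1.15e-08, edgeR). It was highest in adult luminal classes 7, 3 and 2, at 17.96, 13.5 and 12.1 RPM, and had no read in fetal classes 4, 12 and 13. A second lower region, chr19:55844473-55845472, had 0 and 8 fetal reads against 26 and 47 adult reads, so it passed the filter through the adult libraries, and its call was lost without adult 2 (adjusted p = 0.055, edgeR).

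Lef1 had its called rises within the gene, 50.6 kb to 98.01 kb after the start. The largest, chr3:131207810-131208809, had 31 and 69 fetal reads and 13 and 6 adult reads (log2 2.99 ± 0.50 SE, adjusted p = 8.37e-06, edgeR). It had reads in all 5 fetal classes, at 3.27 to 6.27 RPM, and in the stromal-like class 6 at 5.92, but none in adult basal-like classes 1 and 8. Classes 13 and 6 are small, so their values rest on a few reads each. The second, chr3:131168837-131169836, had 18 and 79 against 12 and 39 reads (log2 1.496 ± 0.44 SE, adjusted p = 0.00633, edgeR). It was instead highest in the basal-like classes of both stages, at 12 in class 4, 8.28 in class 8 and 6.95 in class 1, and lost its call without fetal 2 (adjusted p = 0.157), without adult 1 (0.15) or with DESeq2 (0.097).

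The remaining loci held little. The single Axin2 rise, chr11:108933384-108934383, had 16 and 39 against 10 and 23 reads (log2 1.40 ± 0.53 SE, adjusted p = 0.0345, edgeR) and lost its call whichever library was left out (adjusted p = 0.0614 to 0.258) and with DESeq2 (0.187). The Tcf7 rise, chr11:52313982-52314981 within the lncRNA Gm30217, had 13 and 65 against 25 and 16 reads (log2 1.38 ± 0.48 SE, adjusted p = 0.0221, edgeR). In CPM its fetal values, 5.56 and 10.5, were above the adult values, 4.56 and 2.10, and the call was lost with DESeq2 (adjusted p = 0.205) and without fetal 2 (0.382) or adult 2 (0.315). The Tcf7 fall, chr11:52242515-52243514, lies in Skp1 and had 0 and 0 fetal reads against 17 and 23 adult reads. All 6 tested distal regions inside Tcf7 had a log2 fold change below 0 and none was called, with a median of -0.43.

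**Figure D3:**
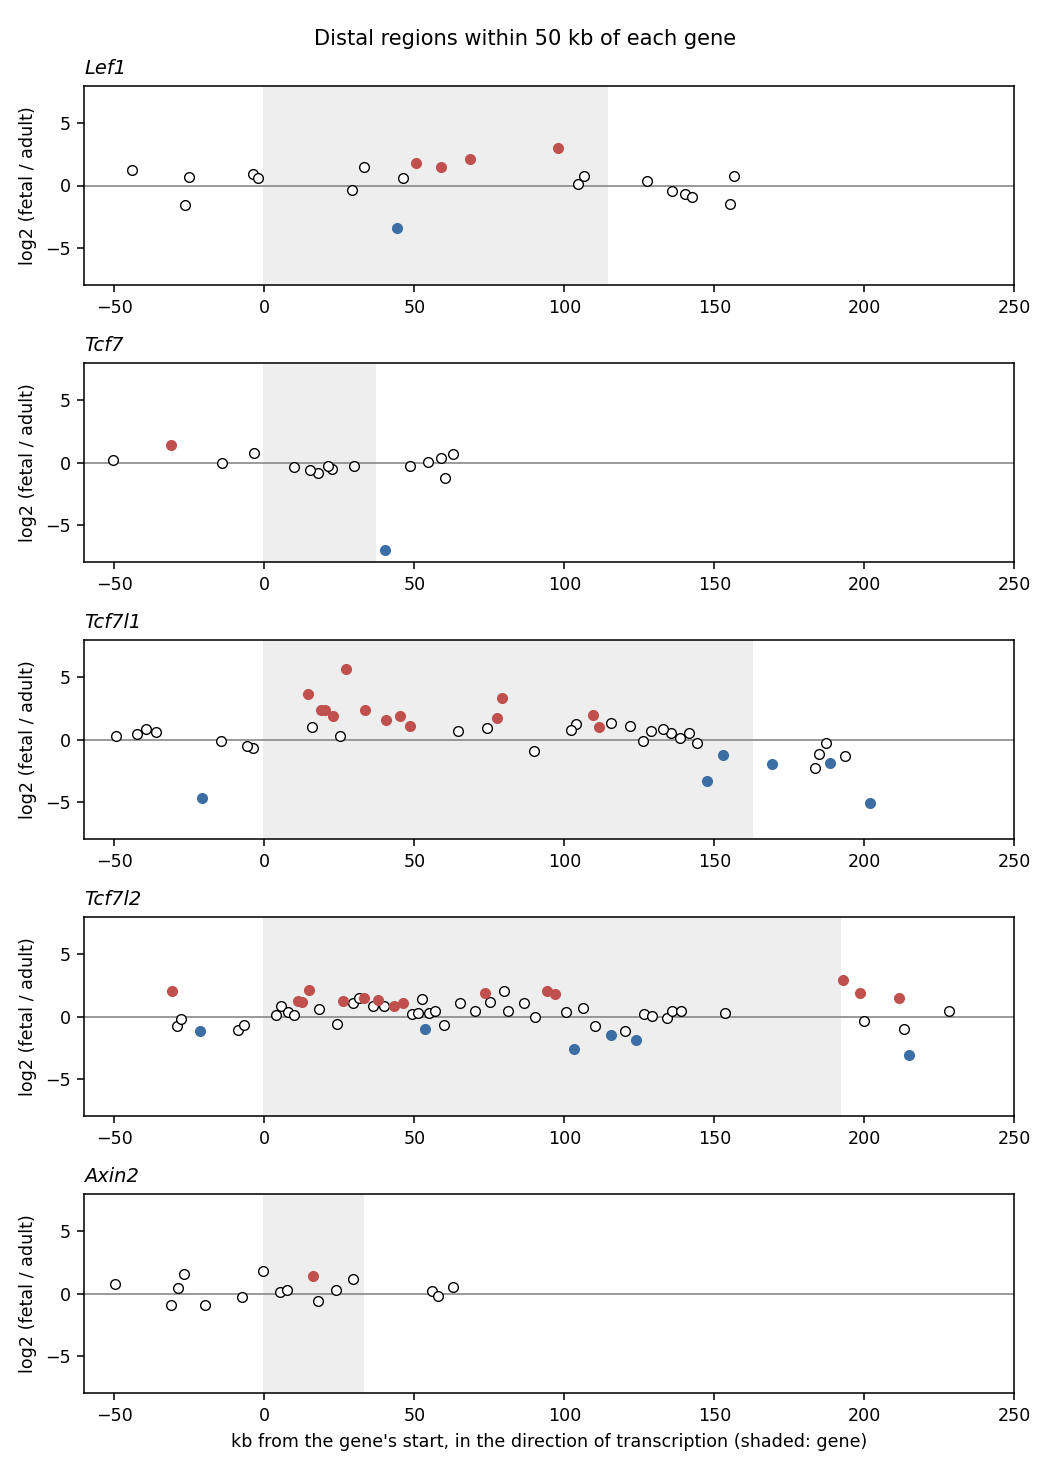
Log2 ratio of fetal to adult reads for each tested distal region within 50 kb of a gene, against its distance in kb from the gene's start in the direction of transcription; the shaded band is the gene. Red points were called higher and blue points lower in fetal nuclei by edgeR, open points were not called; points with few reads in a stage, such as the Tcf7 point at -7.06, depend on the prior count. The higher regions of Tcf7l1 lie between 14.4 kb and 112 kb after its start.

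**Figure D4:**
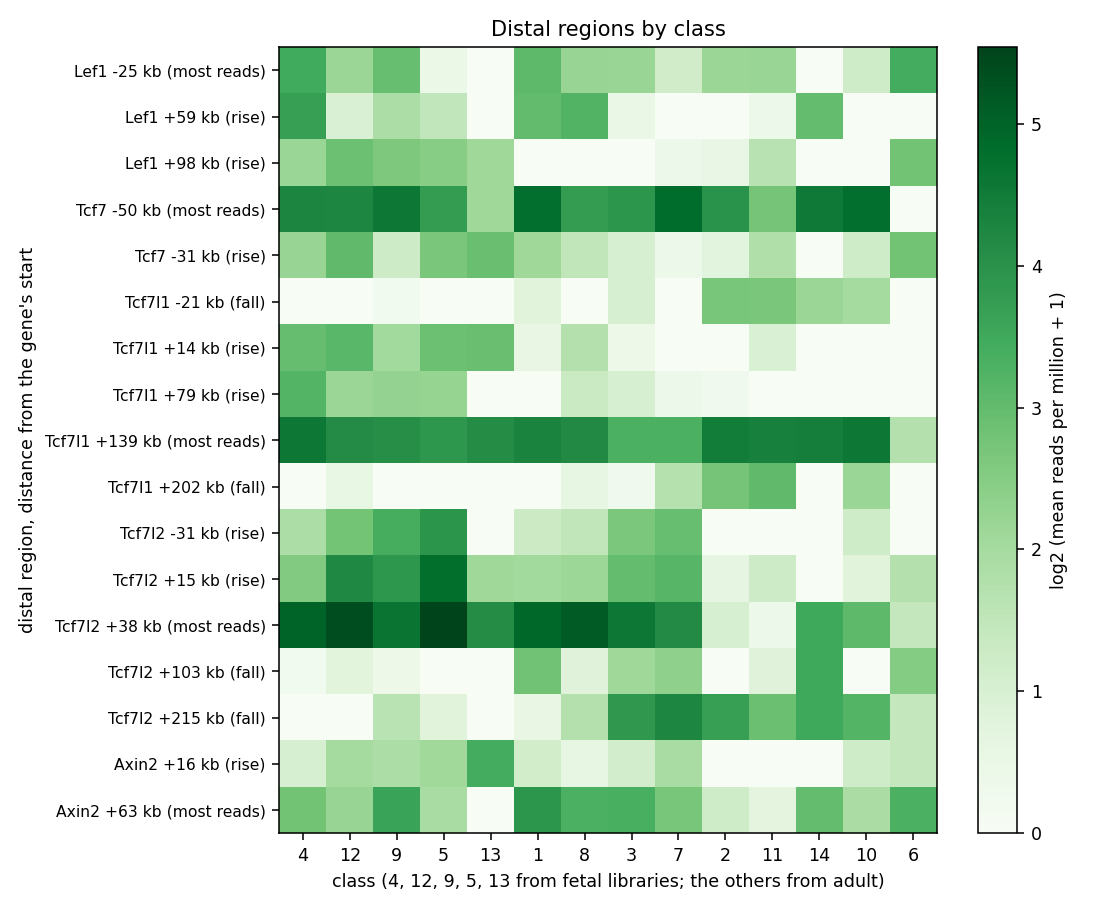
Mean RPM, as log2 after adding 1, of the named distal regions (rows, with the distance from the gene's start) in each class (columns), over libraries with at least 50 nuclei. The Tcf7l2 region at 38 kb is lower in classes 2 and 11 than in the basal-like and luminal progenitor-like classes, and the fall regions of Tcf7l1 are open in classes 2 and 11.

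The authors' Cicero table scores how far pairs of regions open in the same nuclei, over all nuclei of both stages. Of all pairs of a promoter and a distal region 2.46% had a score of at least 0.1, and of all listed pairs 2.63%. The pairs listed for a gene below include pairs with other promoters, so their shares do not have the base of the 2.46%. Tcf7l1 had 13 partners at that score, all distal, among 234 listed pairs, or 5.56%. Of the 13, 10 were called higher in fetal nuclei and none lower, against 16.6% and 18.8% of all distal regions. The partners were scored on nuclei of both stages with a promoter that was itself higher in fetal nuclei, so their direction is not independent of its own. Of those partners 10 lie within the gene, and the 3 highest scores, 0.29, 0.262 and 0.252, were with regions 23.0, 33.6 and 20.1 kb into it. Those 3 regions were each higher in fetal libraries, by 1.86, 2.35 and 2.36 on the log2 scale (adjusted p = 0.000116, 9.07e-07 and 2.4e-08, edgeR).

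The other promoters had fewer partners, though not all had a lower share of pairs. Tcf7l2 had 3 of 117 pairs, or 2.56%, at scores of 0.14, 0.135 and 0.12, of which 2 are the rises 30.8 kb before and 14.9 kb after its start named above, and all 3 were higher in fetal nuclei. Axin2 had 3 of 40 pairs, or 7.5%, a higher share than Tcf7l1, and 1 of those partners was lower in fetal nuclei. It lies 93.8 kb after the start, with 838 and 1543 fetal reads and 2661 and 3056 adult reads (log2 -0.55, adjusted p = 0.00236, edgeR). Another, 208 kb after the start, was not called. The highest Axin2 score, 0.163, was with a region 9.20 kb into the gene that had 7, 9, 6 and 15 reads in the 4 libraries and was not tested. Lef1 had 1 partner of 188 pairs, or 0.53%, 229 kb after its start with a score of 0.174. Tcf7 had 1 of 163 pairs, or 0.61%, 197 kb after its start with 0.118. Both of these were higher in fetal nuclei (log2 0.93 and 2.43, adjusted p = 0.00171 and 6.94e-10, edgeR).

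The motif scores are the authors' chromVAR deviations, relative values centred near 0 that measure how open the sites of a motif are in a nucleus. They do not name the factor, since TCF and LEF factors bind nearly the same sites. The Lef1 and Tcf7l2 columns were almost the same measure, with r = 0.97 over 7846 nuclei, while the Tcf7l1 column correlated with them at 0.54 and 0.52 and the Tcf7 column at 0.32 and 0.33. Of all motifs 67.9% were called different between the stages by limma at an adjusted p under 0.05, 32.3% as higher and 35.6% as lower in fetal nuclei, so a call here is common.

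The Lef1 score averaged 0.16 and 0.31 in fetal against -0.24 and -0.08 in adult libraries. Both fetal means were above both adult means, by 0.39 ± 0.08 (SE; adjusted p = 0.00721, limma). The Tcf7l2 score differed by 0.39 ± 0.08 (SE; adjusted p = 0.00605, limma). With classes of at least 20 nuclei weighted equally both were still called but smaller. They were then 0.17 for Lef1 (adjusted p = 0.0122, limma) and 0.19 for Tcf7l2 (adjusted p = 0.00593, limma). In that run the 23 and 33 fetal nuclei of stromal-like class 6 weighed as much as any other class. Their Lef1 scores averaged -0.77 and -0.87. The part of class 6 in the smaller differences was not tested. The Tcf7l1 score averaged 0.13 and 0.22 against -0.15 and -0.06, a difference of 0.28 ± 0.06 (SE; adjusted p = 0.0071, limma), and lost its call without adult 1 (adjusted p = 0.0504) and when classes were weighted equally (difference 0.08, adjusted p = 0.162). The Tcf7 score averaged 0.03 and 0.03 against -0.03 and -0.01 and was not called (difference 0.05, adjusted p = 0.34, limma). In size these differences were moderate. Of all motifs 33.7% differed more than Lef1 and 47.5% more than Tcf7l1, and the median absolute difference was 0.256. The SD of the Lef1 score over nuclei was 1.07, larger than its difference between the stages.

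By class the Lef1 motif score was positive in the basal-like and fetal classes and in the unnamed adult class 14. Class 14 had 722 RPM of summed mature luminal markers and 480 of summed basal markers. The Lef1 motif score was highest in adult basal-like class 8, at 0.46 and 0.49, and positive in classes 5, 1, 12, 4, 14, 9 and 13. It was negative in adult classes 3, 7, 11, 2, 6 and 10, the last at -0.465 and -0.441. This order leaves out points with fewer than 50 nuclei. Among those, the 40 class 13 nuclei of fetal 1 averaged -0.21, and the 23 and 33 fetal nuclei of class 6 averaged -0.77 and -0.87. The fetal luminal progenitor-like classes 5 and 9, at 0.41 and 0.20 on average, were on the other side of 0 from the adult ones, 3 and 7, at -0.19 and -0.32. The Tcf7l2 score had the same sign as the Lef1 score in all 14 classes, whereas the Tcf7 score stayed between -0.14 and 0.20 and was highest in class 5. Among the other motifs, those most like Lef1 over the 26 points were Hoxc8 (r = 0.92), Dlx5 (0.91) and Msx1 (0.90), homeobox factors.

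**Figure D5:**
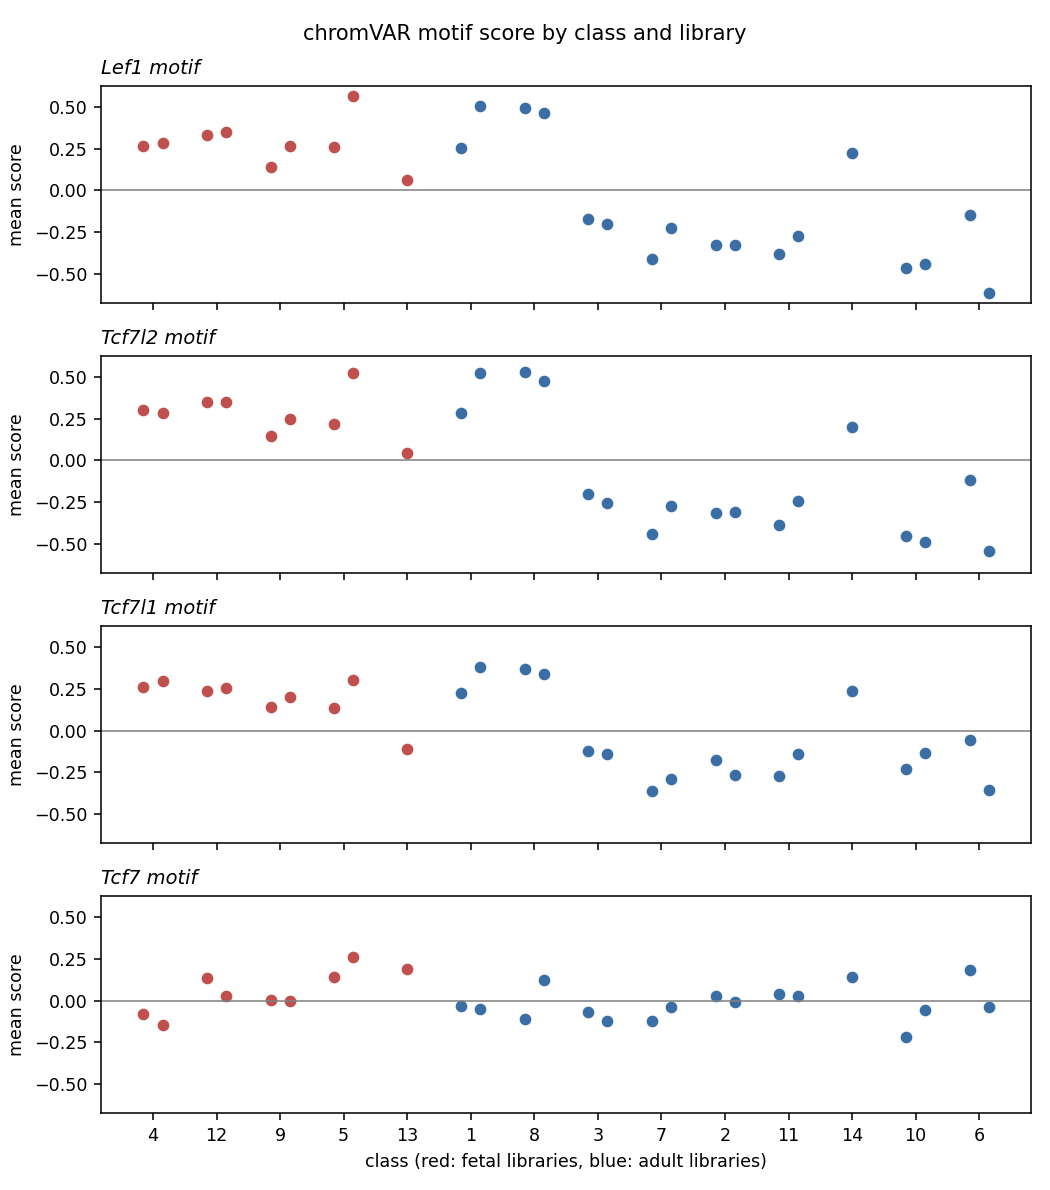
Mean chromVAR score of the nuclei of each class (x axis) and library (points) for the 4 motif columns; red points are fetal and blue points adult libraries, with at least 50 nuclei each. The Lef1 and Tcf7l2 scores are positive in fetal classes and in adult classes 1, 8 and 14, and below 0 in the other adult classes, and the Tcf7 score stays near 0.

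Set against gene levels over the same 26 points, the Lef1 motif score ran with the level of Tcf7l1 (r = 0.75) more closely than with that of Lef1 itself (0.59), Tcf7 (0.37), Tcf7l2 (0.34) or Axin2 (0.28). Within the 9 fetal points the value for Tcf7l1 was 0.91 and that for Lef1 -0.05, and within the 17 adult points they were 0.59 and 0.40, with the Tcf7 level at 0.61, the highest of these 3 there. The Tcf7l1 motif score had r = 0.69 with the level of its own gene, the Tcf7l2 score 0.31 and the Tcf7 score 0.12. These are descriptions over points that share libraries.

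Other genes of the pathway were taken from a list of 39, all of which passed the filter. Over the whole list 9 were called higher in fetal nuclei and none lower, against 11.3% and 10.9% of all genes, and the median log2 fold change was 0.19 against 0.01 over all genes. None of the 7 genes of the beta-catenin destruction complex (Apc, Axin1, Gsk3a, Gsk3b, Csnk1a1, Amer1 and Btrc) was called. Of 7 nuclear partners Ctnnb1, which encodes beta-catenin itself, was called, at 127 and 115 CPM in fetal against 82.2 and 78.1 in adult libraries (log2 0.59, adjusted p = 0.00238, edgeR). Of 8 corepressors Ctbp2 was called (log2 0.38, adjusted p = 0.00751, edgeR), and Tle1 to Tle5, the Groucho-type partners of TCF factors, were not called over all nuclei.

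Of the 17 feedback inhibitors and commonly named targets 7 were called, all as higher. Lgr5, a receptor for R-spondins and a stem cell marker in several epithelia, had 172 and 198 CPM in fetal and 54.9 and 73.0 CPM in adult libraries (log2 1.53, adjusted p = 1.7e-05, edgeR). Its stages lay far apart. Dkk1, a secreted Wnt inhibitor, had 12.5 and 9.32 against 2.66 and 4.44 CPM (log2 1.58, adjusted p = 0.00851, edgeR). The others were Sp5 (log2 0.64), Lgr6 (0.61), the ubiquitin ligases Znrf3 (0.52) and Rnf43 (0.51), which remove Wnt receptors, and Nkd1 (0.39). Ccnd1 (log2 -0.08), Myc (-0.12), Cd44 (-0.36) and Procr (-0.04) were not called.

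Within the luminal progenitor-like classes 9 of the 39 were higher and 3 lower in fetal nuclei, and within the basal-like classes none of 38 was higher and 3 were lower. Over all genes tested the shares were 9.66% higher and 10.3% lower in the former and 2.93% and 3.03% in the latter. Lgr5 was higher in the luminal progenitor-like classes (log2 1.73, adjusted p = 2.73e-08, edgeR) and at 0.11 in the basal-like classes (adjusted p = 0.82, edgeR). Besides Lgr5, Ctnnb1, Ctbp2 and Nkd1 were higher both there and over all nuclei, and Tle2 (log2 0.89, adjusted p = 0.0226, edgeR), Nkd2, Dkk2, Dkk3 and Wif1 were called only in the luminal progenitor-like classes of these 2 comparisons. Of those called over all nuclei, Lgr6 (log2 0.15, adjusted p = 0.405), Rnf43 (0.31, 0.0783), Znrf3 (0.32, 0.0501), Sp5 (0.47, 0.255) and Dkk1 (1.07, 0.141) were not called there by edgeR. The 3 lower luminal progenitor-like genes were Cd44 (log2 -0.98), Myc (-0.45) and Ccnd1 (-0.40). In the basal-like classes Nkd1 (log2 -1.04, adjusted p = 0.00204), Dkk3 (-0.94, 0.00758) and Lgr6 (-0.61, 0.0495) were lower by edgeR. In the interaction test, 6 of the 39 genes had a lower and 2 a higher stage difference in the basal-like classes, against 2.6% of all genes higher and 3.57% lower. Lgr5 was among the lower ones, at -1.67 ± 0.21 (SE; adjusted p = 2.59e-09, edgeR), with Dkk3 (-1.95), Nkd1 (-1.56), Nkd2 (-1.42), Wif1 (-1.02) and Lgr6 (-0.80). Ccnd1 (1.10) and Cd44 (0.66) were the higher ones. For these genes the interaction was not repeated with libraries left out.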

How the data were processed

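Single-nucleus ATAC-seq reads were deposited by the authors as read positions per nucleus on mm10; Bowtie2, MACS2 and bedtools appear in the submitters' processing notes. The nuclei, their classes, read counts per nucleus and the chromVAR scores come from the authors' deposited table of 427 motif columns, 388 of them distinct, and the co-accessibility scores from the authors' deposited Cicero table. Reads of these nuclei were counted over RefSeq gene spans with 2 kb on either side and over the authors' 1 kb promoter and distal regions, and summed per library, and features averaging 10 or more reads in the 4 libraries were kept. Counts were tested with edgeR 4.0.16 (TMM, quasi-likelihood) in R 4.3.3 and library means of motif scores with limma 3.58.1, with Benjamini-Hochberg adjustment over all features. The SE was derived from the log2 fold change and its F statistic. DESeq2 1.42.0, other scalings, filters and feature definitions, and leaving out each library were alternatives. Fits were tested on simulated data. Named distal regions were those with the largest called changes in each direction among regions averaging 20 or more reads, and the one with the most reads. The single Tcf7 fall has fewer reads than this and was named beside them. Likeness was the Pearson correlation of levels over 26 class and library points. Reads were 6028168 to 19304830 per library. Intervals cover counting error only. The members and lists were chosen with earlier results of these data known.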

Additional observations from a re-analysis of the deposited data

Results flagged for a closer look

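The stage difference over the gene span was not the same in the basal-like and the luminal progenitor-like classes for Tcf7 and Tcf7l1, by the interaction term in edgeR with the library as a block. For Tcf7 the log2 fetal over adult difference was -0.90 in the basal-like and 0.21 in the luminal progenitor-like classes, an interaction of -1.16 (adjusted p = 0.0143). For Tcf7l1 it was 0.31 and 0.78, an interaction of -0.52 (adjusted p = 0.0372). Both calls were lost without fetal 2 (interaction -0.72 and -0.27) and without adult 1 (-1.0 and -0.46), and that of Tcf7l1 also without adult 2 (-0.57).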

How the results depend on the processing

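Of 63 single results, 35 kept their direction and their side of the threshold under every alternative run. Over gene spans 4172 genes were called, 6424 with the replicate block and 1812 to 4459 with 1 library left out. Promoter calls were 3992, 2622 with DESeq2 and 2514 to 3057 without 1 library. Distal calls were 43423, 24872 with DESeq2 and 15301 with a mean of 50 reads per library. Luminal progenitor-like calls were 3516, 1966 with DESeq2 and 1134 to 3422 without 1 library. Basal-like calls were 983, 317 with DESeq2, 1550 with class 12 added and 553 to 867 without 1 library. Interaction calls were 1066, and 521 to 769 without 1 library. The 21 Cicero partners became 3 at a score of at least 0.25 and 282 above 0. Directions turned only for values that were not called: Tcf7 over the gene span (-0.018 without fetal 2, up to 0.071 without fetal 1), the Tcf7 region with the most reads (-0.05 without fetal 1, -0.17 without adult 2, up to 0.47 without fetal 2), the Tcf7l1 region with the most reads (-0.045 with no filter, -0.13 without adult 2, up to 0.15 without fetal 1), Tcf7l2 in the luminal progenitor-like classes (-0.011 without fetal 2, -0.0046 without adult 2, up to 0.12 without fetal 1) and the Lef1 interaction (0.048 without fetal 2, down to -0.39 without fetal 1). The causes were not tested. Libraries with the same number share only that number in the labels. Their deviations correlated at 0.07 to 0.29 over genes and regions and 0.45 over motif scores, and among the 5 genes, the named regions and the 4 motif scores the block changed the call of Axin2 alone (adjusted p = 0.0149, edgeR). Of 179 distal regions near the 5 genes, 160 had enough reads to be tested.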
